A study of Mus musculus with 12 samples.

Results

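The 33 genes described here encode the machinery that receives, folds, inspects and disposes of proteins in the endoplasmic reticulum (ER). They are 8 chaperones and cofactors of the ER lumen, 2 lectin chaperones, 6 disulfide isomerases and related thiol proteins, 8 genes of ER-associated degradation (ERAD), 3 stress sensors with the transcription factor Xbp1, and 5 genes of the translocon and the COPII vesicle coat. They were taken by gene symbol from the 14822 genes of the deposited table, and the list was chosen with earlier results of these data known. All 33 are protein-coding genes, passed the filter on low values and stood among the 10988 genes tested. RNA came from whole liver of C57BL6/J mice in 3 groups of 4 libraries, and every group was treated for 4 weeks. Mice on the MASH diet received FGF21 at a dose of 1 mg per kg per day (written FGF21 below) or saline vehicle (MASH vehicle), and mice on chow received saline vehicle (chow). MASH (metabolic dysfunction-associated steatohepatitis) is fatty liver with inflammation and cell injury, and FGF21 is a metabolic hormone of the fibroblast growth factor family. The labels give neither age nor sex, do not name the MASH diet, and do not say whether each library is a different mouse. Should several share a mouse, the p-values below reflect only a spread between libraries that may be technical.

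Hepatocytes make most of the proteins of blood plasma, and each of these passes through the ER. The sensors Ern1 (IRE1), Eif2ak3 (PERK) and Atf6 span the ER membrane and respond to unfolded protein. Together they form the unfolded protein response. Ern1 splices the mRNA of Xbp1 into its active form, Atf6 is cleaved into a transcription factor, and Eif2ak3 phosphorylates the initiation factor eIF2 alpha. The targets of Xbp1 and Atf6 include the lumenal chaperones and the ERAD genes. The values below are per gene and do not separate spliced from unspliced Xbp1 mRNA.

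Promoter sequence was searched for the letters by which these targets are classically recognised, namely the ER stress element (ERSE, the letters CCAAT and CCACG with any 9 bases between them), the ERSE-II (ATTGG and CCACG with any 1 base between them) and the unfolded protein response element (UPRE, TGACGTGG). The search covered both strands of the RefSeq windows from 250 bases before to 50 bases after each transcription start (GRCm38.p6). Windows were found for 28 members, and Hyou1, Manf, Derl1, Atf6 and Sec61a1 were not searched. The ERSE stood in 9 of these 28 members, against 0.119% of all 32851 windows. The ERSE-II stood in 2 members, against 0.0365% of windows, and the UPRE in 1, against 0.676%. Any of the 3 stood in 12 members, against 0.822% of windows, and no match in a member overlapped another. Members were counted by gene, with 30 windows for the 28, whereas the shares are by window. Over windows of the genes tested the shares were 0.142%, 0.0712% and 0.784%, and 0.988% for any of the 3. Because such targets are classically recognised by these letters, a higher share among the members is no independent result. An exact match is a description of these letters and not a measured site. The matched elements are shown because they are what these promoters share. Each is printed 5′ to 3′ on the strand that reads as the motif, with the fixed letters in capitals.
Calr ERSE (chr8:84847075-84847093, plus strand): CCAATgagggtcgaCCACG
Canx ERSE (chr11:50325800-50325818, minus strand): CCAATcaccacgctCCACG
Creld2 ERSE (chr15:88819520-88819538, minus strand): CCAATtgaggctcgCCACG
Derl3 ERSE (chr10:75893242-75893260, minus strand): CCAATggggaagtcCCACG
Dnajc3 ERSE (chr14:118937827-118937845, plus strand): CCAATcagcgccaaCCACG
Hsp90b1 ERSE (chr10:86705533-86705551, plus strand): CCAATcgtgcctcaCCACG
Hsp90b1 ERSE (chr10:86705638-86705656, minus strand): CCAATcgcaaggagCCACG
Hspa5 ERSE (chr2:34772025-34772043, plus strand): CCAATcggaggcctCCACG
Pdia6 ERSE (chr12:17266491-17266509, plus strand): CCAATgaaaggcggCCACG
Syvn1 ERSE (chr19:6046532-6046550, plus strand): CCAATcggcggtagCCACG
Dnajb11 ERSE-II (chr16:22857852-22857862, plus strand): ATTGGcCCACG
Herpud1 ERSE-II (chr8:94386377-94386387, plus strand): ATTGGgCCACG
Sec24d UPRE (chr3:123267470-123267477, plus strand): TGACGTGG
Hsp90b1 was the member with more than 1 match. The upstream sequence of Derl3, Hsp90b1 and Herpud1 is printed 5′ to 3′ on the gene's strand, to show an ERSE in reverse orientation, a pair of ERSEs facing each other, and an ERSE-II. Capitals mark the fixed letters as they read on that strand.
Derl3 (chr10:75893148-75893397, plus strand): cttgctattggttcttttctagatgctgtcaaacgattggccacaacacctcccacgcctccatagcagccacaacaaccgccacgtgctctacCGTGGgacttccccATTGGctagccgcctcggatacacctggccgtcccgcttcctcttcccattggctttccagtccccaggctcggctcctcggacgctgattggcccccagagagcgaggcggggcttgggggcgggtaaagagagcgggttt
Hsp90b1 (chr10:86705510-86705694, minus strand): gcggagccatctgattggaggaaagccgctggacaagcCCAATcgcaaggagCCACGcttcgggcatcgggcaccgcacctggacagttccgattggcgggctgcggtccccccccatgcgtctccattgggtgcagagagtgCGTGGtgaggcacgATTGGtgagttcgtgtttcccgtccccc
Herpud1 (chr8:94386179-94386428, plus strand): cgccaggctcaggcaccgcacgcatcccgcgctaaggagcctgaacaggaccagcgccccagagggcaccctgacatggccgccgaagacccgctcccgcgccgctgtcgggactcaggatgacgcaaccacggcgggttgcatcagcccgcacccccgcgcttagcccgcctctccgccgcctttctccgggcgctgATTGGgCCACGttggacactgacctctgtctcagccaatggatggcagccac
Each run ends just before the first annotated transcript base. Derl3 was called higher in both comparisons with chow. Hsp90b1 was called lower and Herpud1 higher in FGF21 against chow, as given below. Of the 9 members with an ERSE, Derl3 and Pdia6 were called in MASH vehicle against chow, both higher, and the others were not. In FGF21 against chow, Derl3 and Syvn1 were higher, Hsp90b1 and Canx lower, and the others not called.

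**Figure D1:**
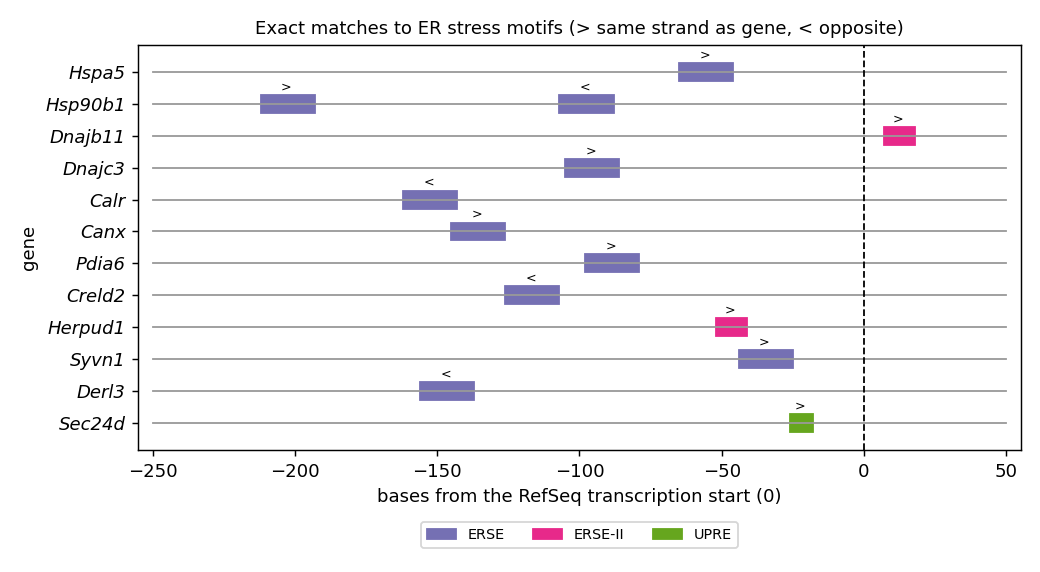
Position of each exact match in the 12 members that hold one, in bases from the RefSeq transcription start (horizontal axis, 0 at the dashed line), with 1 gene per row. Bars are matches coloured by motif, and arrows give the strand. Apart from Dnajb11, whose ERSE-II starts at base 7, the matches lie before the RefSeq start, and Hsp90b1 holds 2. By the GENCODE coordinates, the matches of Hspa5 and Sec24d also lie inside the annotated gene.

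Several libraries were often the highest or lowest of their group for these genes. FGF21 replicate 1 was the highest of the 4 FGF21 libraries for 20 of the 33 members (60.6%), against 31% of all genes tested. Chow replicate 2 was the lowest chow library for 20 members, MASH vehicle replicate 3 the lowest of its group for 19 and FGF21 replicate 4 for 18. The share of all genes was not computed for these counts. The median log2 deviation of the members from the other libraries of the group was -0.28 in chow replicate 2 and MASH vehicle replicate 3. It was -0.29 in FGF21 replicate 4 and 0.36 in FGF21 replicate 1. Over all genes tested it was 0.04 in chow replicate 2 and -0.06 in MASH vehicle replicate 3. In FGF21 replicates 4 and 1 it was -0.02 and -0.04 over all genes tested. The summed level of the members was 4019, 3219, 3280 and 3178 TPM in the FGF21 libraries, 4314, 4128, 2999 and 3496 TPM in MASH vehicle and 3713, 2893, 3232 and 3213 TPM in chow. The 3 groups overlap on this sum. TPM is a level scaled for transcript length and to a total of 1000000 per library, so levels can be compared between genes, but it does not keep sequencing depth. The 10 hepatocyte markers summed to 107281 to 118012 TPM in FGF21, 94106 to 100106 TPM in MASH vehicle and 85015 to 113704 TPM in chow. Genes of the acinar pancreas, a tissue rich in ER, were high in FGF21 replicates 1 and 3. Summed over Cela1, Cela2a and Ctrl, the 3 of 19 listed markers analysed here, they ranged from 29.2 to 1456 TPM in FGF21, against 28.4 to 31.6 TPM in MASH vehicle and 47.1 to 75.2 TPM in chow.

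Levels of the members spanned more than 2 orders of magnitude. The disulfide isomerase P4hb had the highest mean over all libraries at 671 TPM, followed by the ERAD scaffold Herpud1 at 420 TPM and the HSP70 chaperone Hspa5 (BiP) at 375 TPM. The lowest were the sensors Eif2ak3 at 4.24 TPM and Atf6 at 9.30 TPM, and the ERAD gene Derl3 at 6.64 TPM. Within a group, the widest relative spread was in Derl3 in chow, where the highest library had 8.40 times the lowest, and in the J-domain cochaperone Dnajb9 in FGF21, at 5 times. The J-domain cochaperone Dnajb11 in FGF21 was the tightest, at 1.03 times.

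**Figure D2:**
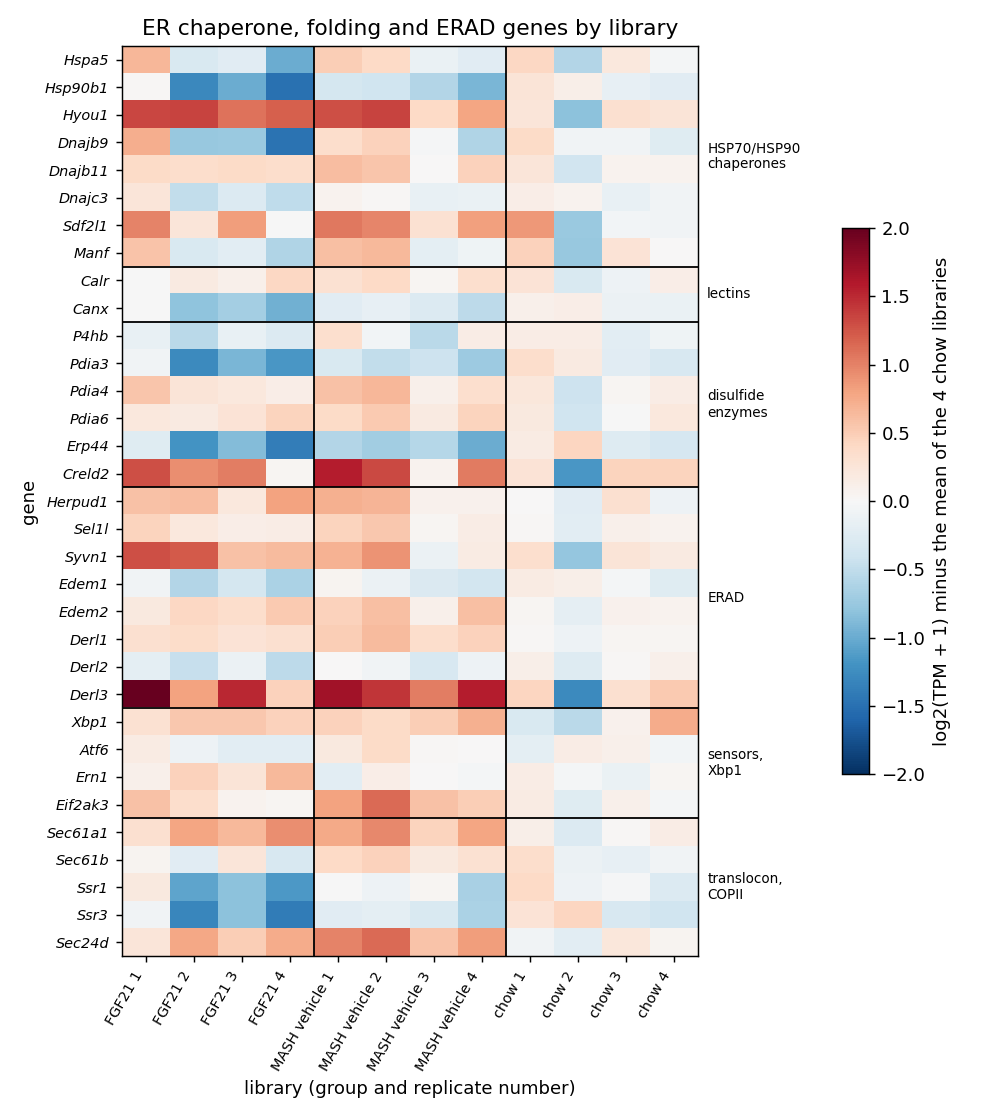
Heatmap of the 33 genes (rows, grouped by role) in the 12 libraries (columns), as log2(TPM + 1) minus the mean of the 4 chow libraries. Derl3 and Hyou1 are red in most libraries on the MASH diet and Hsp90b1, Erp44 and Ssr3 are blue, while FGF21 replicate 1 and chow replicate 2 differ in shade from their groups.

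The effect of the MASH diet on these genes is read from MASH vehicle against chow. Of the 33 members, 9 rose, and they were spread over the roles: the chaperones Hyou1 and Dnajb11, the isomerase Pdia6, the ERAD genes Derl1, Derl3 and Edem2, the sensor Eif2ak3, the translocon pore Sec61a1 and the COPII subunit Sec24d. Only Erp44, a thiol protein that retains secretory proteins early in the pathway, fell. The most abundant lumenal chaperone, Hspa5, did not pass the test, nor did Hsp90b1, Calr, Canx or P4hb. The count of 9 is 27.3% of the members, and 29.5% of all genes tested were called higher. The 1 lower call is 3.03% of the members, against 7.84% of all genes. Thus the share of members called did not exceed the share of all genes in either direction.

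The test was limma's moderated test on log2(TPM + 1), with Benjamini-Hochberg adjustment over the whole table and a call at an adjusted p under 0.05. Fold changes are on that scale, which understates the change of low genes such as Derl3 and Eif2ak3. The median log2 fold change was 0.29 over the members and 0.19 over all genes, and values are to be read relative to the second. The groups did not overlap in 10 members, 7 higher (33.1% of all genes were higher without overlap) and 3 lower (Hsp90b1, Canx and Erp44, against 9.52% of all genes). In whole tissue, fewer cells of a type and less RNA per cell cannot be told apart.

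Among the chaperones of the lumen, Hspa5 (chr2:34771970-34777547, plus strand) had 574.2, 294.6, 311.6 and 181.7 TPM in the FGF21 libraries, 509.7, 481.6, 330.9 and 310.9 TPM in MASH vehicle and 486.0, 242.9, 419.3 and 353.7 TPM in chow. Its groups overlap, and the single highest and single lowest values are both FGF21 libraries. For MASH vehicle against chow its log2 fold change was 0.13, with a 95% interval from -0.52 to 0.78 (adjusted p = 0.749). Hyou1 (GRP170), the large HSP70 relative that exchanges nucleotide on Hspa5, lies at chr9:44379490-44392369 on the plus strand. It had 200.4, 202.5, 167.6 and 180.8 TPM in FGF21, 193.6, 202.7, 104.2 and 136.8 TPM in MASH vehicle and 92.7, 43.9, 98.4 and 94.5 TPM in chow. Every library on the MASH diet exceeded every chow library. The log2 fold change of Hyou1 was 0.96 ± 0.252 (SE, adjusted p = 0.0102). Dnajb11 (chr16:22857845-22879634, plus strand), a J-domain cochaperone of Hspa5, had 39.4, 38.4, 39.3 and 38.3 TPM in FGF21, 46.2, 44.3, 30.1 and 41.6 TPM in MASH vehicle and 35.6, 22.7, 31.5 and 31.4 TPM in chow. MASH vehicle replicate 3 fell among the chow values. Dnajb11 rose by a log2 fold change of 0.41 ± 0.151 (adjusted p = 0.0475), the call nearest to the threshold. Hsp90b1 (GRP94), the HSP90 of the ER, averaged 132 ± 22.6 TPM in MASH vehicle and 195 ± 31.1 TPM in chow (SD, n = 4 each, as for all means below), with no overlap and an adjusted p of 0.104. The cochaperones Dnajb9 and Dnajc3 had log2 fold changes of 0.04 and -0.05. The Hspa5 cofactor Sdf2l1 reached 0.79 (adjusted p = 0.0551) and the secreted stress protein Manf 0.24 (adjusted p = 0.531).

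The lectin chaperones Calr and Canx hold glycoproteins during folding. Calr averaged 215 ± 22.3 TPM in MASH vehicle and 179 ± 31.8 TPM in chow (adjusted p = 0.133). Canx averaged 57.1 ± 6 TPM in MASH vehicle and 70.4 ± 6.80 TPM in chow (adjusted p = 0.185). Neither passed the test.

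Disulfide isomerases form and reshuffle the disulfide bonds of secreted proteins. Pdia6 (chr12:17266545-17284770, plus strand), which also acts on Ern1, had 134.5, 132.4, 140.8 and 159.7 TPM in FGF21, 152.8, 168.4, 132.0 and 159.7 TPM in MASH vehicle and 133.8, 88.1, 116.4 and 134.4 TPM in chow. The groups overlap through MASH vehicle replicate 3. Its log2 fold change was 0.39 ± 0.136 (adjusted p = 0.0403). Erp44 (chr4:48193323-48279558, minus strand) had 19.2, 9.4, 12.1 and 8.1 TPM in FGF21, 14.9, 13.7, 15.0 and 11.0 TPM in MASH vehicle and 25.6, 31.1, 19.0 and 17.8 TPM in chow. Every MASH vehicle library was below every chow library, whereas FGF21 replicate 1 lay within the chow range. Erp44 fell by 0.71 ± 0.233 on the log2 scale (adjusted p = 0.0302). Pdia4 and the stress-inducible Creld2 had log2 fold changes of 0.42 (adjusted p = 0.0526) and 1.00 (adjusted p = 0.0594). Pdia3, the partner of the lectin chaperones, had -0.49 (adjusted p = 0.108), and P4hb -0.02 (adjusted p = 0.921).

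ERAD takes misfolded proteins out of the ER for destruction by the proteasome, and 3 of its 8 members rose. Derl1 (chr15:57869502-57892448, minus strand) and Derl3 encode derlins, membrane proteins of the exit channel. Derl1 had 51.9, 53.7, 50.3 and 51.8 TPM in FGF21, 58.5, 64.8, 53.2 and 57.3 TPM in MASH vehicle and 42.1, 38.6, 42.4 and 42.6 TPM in chow. All 8 libraries on the MASH diet exceeded all chow libraries, with a log2 fold change of 0.48 ± 0.0906 for MASH vehicle against chow (adjusted p = 0.00132). Derl3 (chr10:75893413-75895941, plus strand), whose promoter is printed above, had 13.4, 5.3, 9.3 and 4.0 TPM in FGF21, 10.6, 8.8, 6.4 and 9.8 TPM in MASH vehicle and 3.9, 0.5, 3.5 and 4.2 TPM in chow. Every MASH vehicle library exceeded every chow library, while FGF21 replicate 4 lay within the chow range. Its log2 fold change of 1.43 ± 0.387 was the highest of the members (adjusted p = 0.0121). Edem2 (chr2:155701677-155729475, minus strand), a mannose-trimming protein that marks glycoproteins for disposal, had 47.4, 55.5, 52.9 and 60.3 TPM in FGF21, 57.5, 63.3, 44.5 and 63.7 TPM in MASH vehicle and 42.5, 36.3, 44.1 and 43.4 TPM in chow. MASH vehicle replicate 3 exceeded the highest chow library only narrowly. Edem2 rose by a log2 fold change of 0.44 ± 0.128 (adjusted p = 0.0167). The ubiquitin ligase Syvn1 (HRD1) had a log2 fold change of 0.41 (adjusted p = 0.243), its partner Sel1l 0.29 (adjusted p = 0.0975), and Herpud1, which recruits the ligase, 0.39 (adjusted p = 0.1). Edem1 and Derl2 had -0.18 and -0.12.

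Of the sensors, Eif2ak3 (chr6:70844515-70905245, plus strand) rose. It had 5.0, 4.1, 3.2 and 3.1 TPM in FGF21, 6.0, 7.8, 5.0 and 4.6 TPM in MASH vehicle and 3.5, 2.4, 3.3 and 2.9 TPM in chow. The MASH vehicle libraries all exceeded the chow libraries, with a log2 fold change of 0.75 ± 0.166 (adjusted p = 0.00383). Xbp1 (chr11:5520659-5525893, plus strand) had 144.4, 169.9, 169.1 and 160.2 TPM in FGF21, 159.6, 152.2, 163.7 and 190.1 TPM in MASH vehicle and 94.4, 79.4, 124.0 and 196.2 TPM in chow. Chow replicate 4 was the highest of all 12 libraries for Xbp1, and the other 3 chow libraries were the lowest. Its log2 fold change was 0.51 ± 0.21 (adjusted p = 0.0714). Without chow replicate 4 it was called higher, at an adjusted p of 0.00241, within a range up to 0.643 over the 27 alternatives. Atf6 and Ern1 had log2 fold changes of 0.15 and -0.03 (adjusted p = 0.377 and 0.881).

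Nascent proteins enter the ER through the Sec61 pore and leave it in COPII vesicles. Sec61a1 (chr6:88503579-88518905, minus strand), the pore subunit, had 104.3, 145.2, 131.4 and 160.4 TPM in FGF21, 142.0, 164.2, 114.3 and 145.7 TPM in MASH vehicle and 90.8, 68.9, 84.7 and 92.7 TPM in chow. All libraries on the MASH diet exceeded those on chow, with a log2 fold change of 0.74 ± 0.151 for MASH vehicle (adjusted p = 0.00238). Sec24d (chr3:123267455-123365641, plus strand), which selects cargo for COPII vesicles, had 25.6, 37.6, 30.7 and 36.9 TPM in FGF21, 43.8, 48.4, 32.6 and 39.4 TPM in MASH vehicle and 20.6, 18.6, 25.3 and 22.4 TPM in chow. Here too no library on the MASH diet reached down to chow, and the log2 fold change of 0.88 ± 0.153 had the smallest adjusted p of the members (0.000806). The small pore subunit Sec61b had 0.34 (adjusted p = 0.0739). Ssr1 and Ssr3, subunits of the translocon-associated protein complex, had -0.18 and -0.34 (adjusted p = 0.604 and 0.319).

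**Figure D3:**
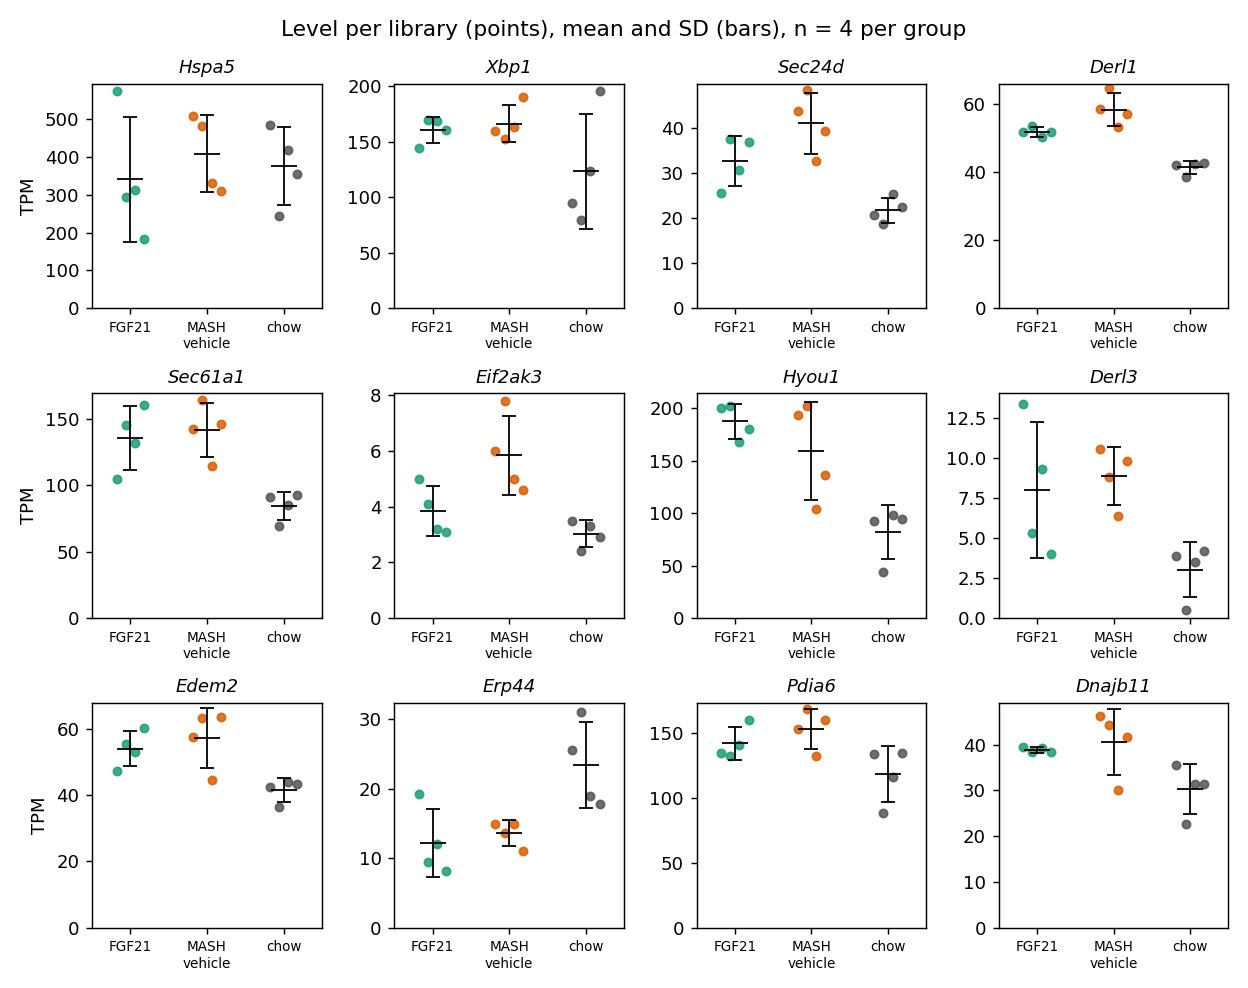
TPM per library (points) with the group mean and SD (bars, n = 4) for Hspa5, Xbp1 and the 10 members called in MASH vehicle against chow, with FGF21 left, MASH vehicle in the middle and chow right. Each vertical axis starts at 0. Sec24d, Derl1, Sec61a1 and Hyou1 lie above chow in all 8 libraries on the MASH diet, while Hspa5 overlaps throughout.

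The calls differed in how firmly they held. Sec24d and Sec61a1 remained called higher under all 27 alternative analyses, Derl3 under 26, Derl1, Eif2ak3 and Hyou1 under 25 and Erp44 under 23. Edem2 passed under 19, Pdia6 under 16 and Dnajb11 under 11. Median-of-ratios scaling took the median of all genes to 0.00 and gave 6 members higher and 5 lower, against 9 and 1. It lost Dnajb11, Edem2 and Pdia6 and added Canx, Derl2, Hsp90b1 and Pdia3 as lower. All genes then split into 1643 higher and 1923 lower, against 3242 and 861. The single lower call, Erp44, was lost without MASH vehicle replicate 2, without MASH vehicle replicate 4, without chow replicate 1 and without chow replicate 2, which left 0 lower calls each. Without FGF21 replicate 1, which enters through the shared estimate of spread, 4 members were called lower (Erp44, Canx, Hsp90b1 and Pdia3), against 11% of all genes.

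GC content moved with the fold changes of the members. Over the 33 members the Spearman correlation of the log2 fold change with the GC content of the longest transcript was 0.78, against 0.41 over 10810 genes. Genes are not replicates, and this only describes them. The members called higher had 48.9% to 57.3% GC, and Erp44 had 41.6%. With the trend of each library with GC content removed, 2 members were higher (Sec24d and Sec61a1) and 2 lower (Erp44 and Ern1), against 13.5% and 12.8% of all genes. Hyou1 then had a log2 fold change of 0.60 (adjusted p = 0.0965, range over the alternatives 0.00405 to 0.0965) and Derl3 of 1.12 (adjusted p = 0.064, range 0.00166 to 0.064). Markers of several cell types also moved with the diet. Those of macrophages summed to 470 to 625 TPM in MASH vehicle and 129.5 to 163.3 TPM in chow, with 11 of 12 called higher. Stellate cell markers summed to 128 to 241 TPM in MASH vehicle and 64.2 to 86.6 TPM in chow, with 8 of 10 called higher. Endothelial markers summed to 193 to 247 TPM in MASH vehicle and 122 to 138.5 TPM in chow, with 7 of 8 called higher. All 3 neutrophil markers tested were called higher, and the listed ones summed to 63.1 to 117.9 TPM in MASH vehicle and 4.2 to 8.2 TPM in chow. Most of that sum was Lcn2 alone. It had 96.6, 56.4, 72.1 and 111.6 TPM in MASH vehicle and 2.9, 5.6, 4.8 and 6 TPM in chow. Of the 10 hepatocyte markers, 4 were called lower (Ttr, Cps1, Tat and Fgb) and 0 higher at an adjusted p under 0.05. Of 5 plasma and B cell markers tested, Cd79a and Cd79b were higher and Ighm was lower, at 7.9 TPM in MASH vehicle and 17.6 TPM in chow. The part of these cells in the member values was not tested.

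The wider secretory pathway was followed in 6 further lists, of which 156 genes were tested. In MASH vehicle against chow 47 of them were higher and 9 lower, against 29.5% and 7.84% of all genes. Their median log2 fold change was 0.22, against 0.19 over all genes. The COPII list had 12 of 24 genes higher and 1 lower, led by the outer coat subunit Sec31a (0.67, adjusted p = 0.000464), the Sar1 exchange factor Preb (0.83, adjusted p = 0.000546) and the cargo receptor Surf4 (0.74, adjusted p = 0.00139). Of 25 genes of signal recognition, translocation and signal peptidase, 8 were higher and 0 lower at an adjusted p under 0.05, led by Srprb (0.79), Srp68 (0.72) and Get3 (0.46). Among 32 other ERAD genes 8 were higher and 4 lower, led by the mannosidase Man1b1 (0.85), the ATPase Vcp (0.67) and its cofactor Nploc4 (0.73). The 18 genes of glycan processing had 3 higher and 1 lower, and the leading ones were the oligosaccharyltransferase subunits Ost4 (0.64), Ddost (0.60) and Rpn2 (0.63). Among 32 other folding enzymes 7 were higher and 3 lower. The smallest p belonged to Tmx4, which fell by 0.56 on the log2 scale, before the isomerase Txndc5 (0.84) and the prolyl isomerase Ppic (0.59). Of 25 other regulators of the unfolded protein response 9 were higher and 0 lower by limma, led by Atf3 (1.65), Traf2 (0.72) and Creb3l1 (0.85).

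**Figure D4:**
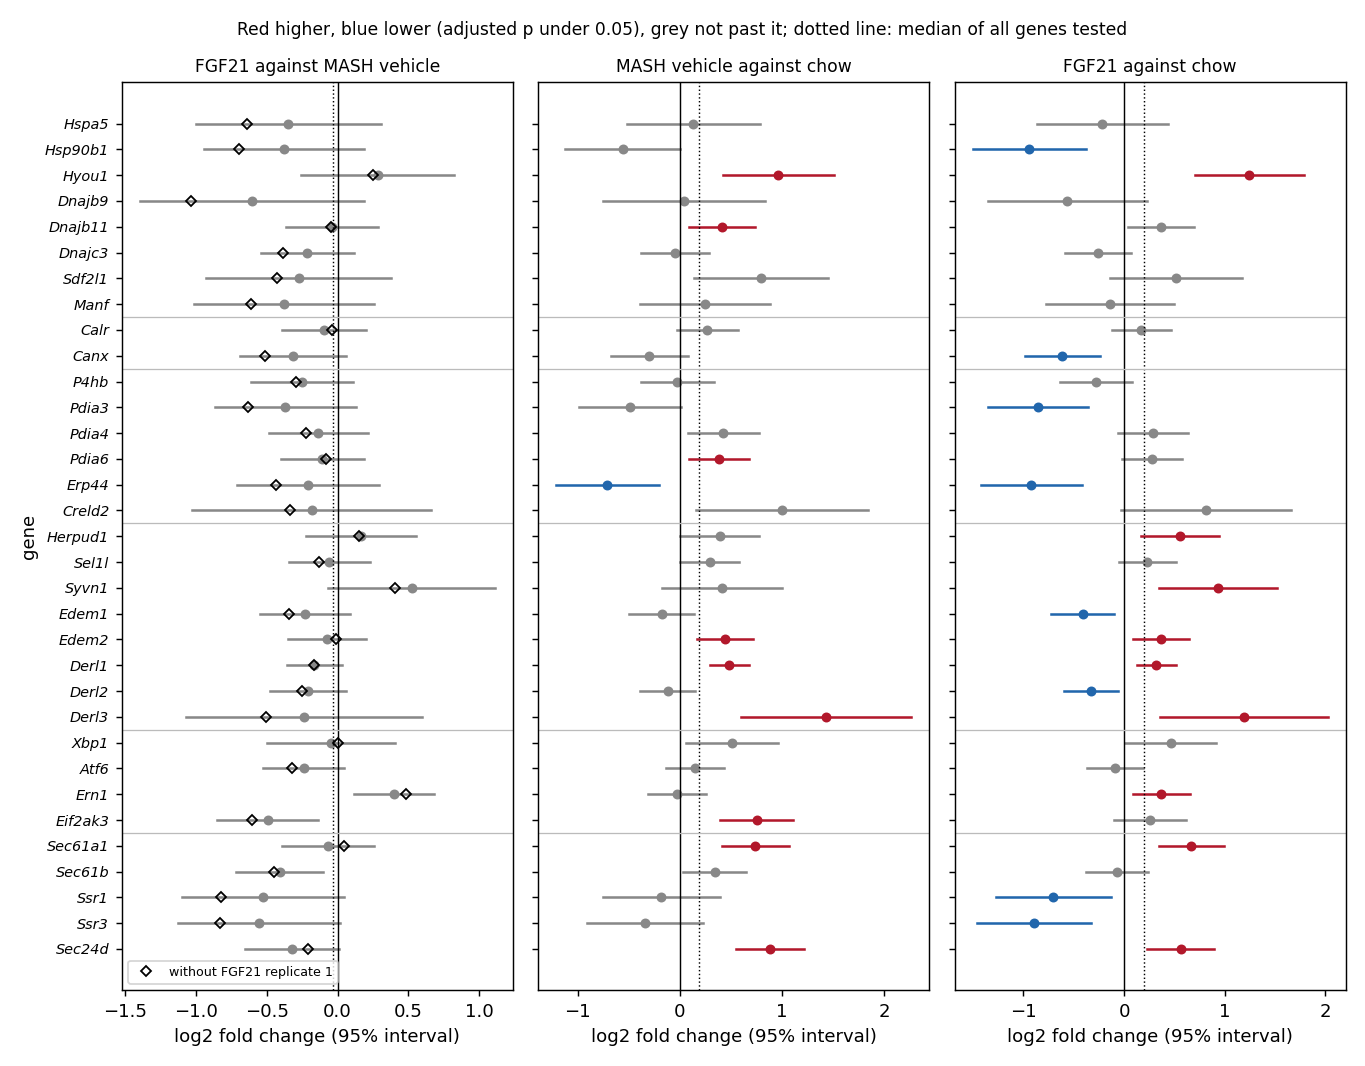
Log2 fold change with its 95% interval (horizontal axis) for the 33 genes (rows, grouped by role) in the 3 comparisons, coloured by call. Diamonds give the fold change of FGF21 against MASH vehicle without FGF21 replicate 1. No gene is coloured in FGF21 against MASH vehicle, where 29 of the 33 points lie below 0.

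The effect of FGF21 under the MASH diet is read from FGF21 against MASH vehicle. At an adjusted p under 0.05, limma called 0 of the 33 members, against 6.02% of all genes higher and 4.28% lower. At an unadjusted p under 0.05 there were 3, Ern1 higher and Eif2ak3 and Sec61b lower, which is 9.09% of the members against 25.9% of all genes. The estimates of 29 members (87.9%) were below 0, against 54.8% of all genes, and the 4 above 0 were Hyou1, Herpud1, Syvn1 and Ern1. The median was -0.21 over the members, which ranged from -0.61 (Dnajb9) to 0.52 (Syvn1), and -0.03 over all genes. In no member did the 2 groups separate without overlap, against 7.47% of all genes higher and 6.63% lower. Cell type markers moved here too. Of 12 macrophage markers 1 was called higher and 3 lower, and of 10 stellate cell markers 1 higher and 3 lower. Of 3 neutrophil markers tested 2 were lower, and of 4 cholangiocyte markers 1. Of 10 hepatocyte markers 0 were called, though 9 estimates were above 0, and of 8 endothelial markers 0 were called. Their part in the member values was not tested.

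The estimates nearest to a call were in the sensors. Ern1 had 15.1, 19.7, 16.9 and 22.4 TPM in FGF21 and 11.9, 15.4, 14.1 and 13.5 TPM in MASH vehicle. Only FGF21 replicate 1 fell below the highest MASH vehicle library. Its log2 fold change was 0.40 ± 0.132 (adjusted p = 0.0744). Eif2ak3 averaged 3.85 ± 0.889 TPM in FGF21 and 5.85 ± 1.43 TPM in MASH vehicle, a log2 fold change of -0.49 (adjusted p = 0.0766), and Sec61b had -0.41 (adjusted p = 0.0877). The intervals of the other members include 0, some of them only just. That of Sec24d ran from -0.65 to 0.008 and that of Ssr3 from -1.12 to 0.015. On the other side, that of Syvn1 ran from -0.07 to 1.11. Others leave room for changes in either direction. For Hspa5 the log2 fold change was -0.35, with an interval whose lower end was just short of -1 and whose upper end was 0.30. For Xbp1 it was -0.05, from -0.50 to 0.41, and for Derl3 -0.24, from -1.07 to 0.59.

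FGF21 replicate 1 decided this count. Without it, 8 members were called lower (Hsp90b1, Dnajb9, Dnajc3, Canx, Pdia3, Eif2ak3, Ssr1 and Ssr3) and 1 higher (Ern1), against 8.56% and 11.6% of all genes. The other 3 FGF21 libraries lay below all MASH vehicle libraries in 10 members, against 16% of all genes tested, and above them in 1, against 13.7%. These genes are described because of that change and were chosen after their values were seen. Hsp90b1 had 196.4 TPM in FGF21 replicate 1 and 78.7, 96.3 and 68.1 TPM in the other FGF21 libraries, against 152.3, 146.6, 128.8 and 102.1 TPM in MASH vehicle. Replicate 1 was thus above every MASH vehicle library and the other FGF21 libraries were below. Dnajb9 had 44.0 TPM in FGF21 replicate 1 and 15.1, 15.2 and 8.8 TPM in the others, against 33.6, 36.3, 25.7 and 16.9 TPM in MASH vehicle. Ssr3 had 75.3 TPM in FGF21 replicate 1 and 31.4, 44.1 and 29.4 TPM in the others, against 66.9, 68.6, 63.6 and 50.7 TPM in MASH vehicle. Both show the pattern of Hsp90b1. Without replicate 1 the log2 fold changes of FGF21 against MASH vehicle were -0.70 for Hsp90b1 (adjusted p = 0.0133, range over the alternatives 0.0064 to 0.75), -1.04 for Dnajb9 (0.0147, range 0.0145 to 0.7) and -0.83 for Ssr3 (0.016, range 0.00715 to 0.463). With all libraries they were -0.38, -0.61 and -0.55. Hspa5 then averaged 263 ± 70.6 TPM in the 3 FGF21 libraries (adjusted p = 0.0929, range 0.0605 to 0.911) and was not called.

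Weighting the libraries by their noise gave 9 members lower and 1 higher, against 9.59% and 12.9% of all genes. Without FGF21 replicates 1 and 3 there were also 9 lower and 1 higher, against 11.1% and 16.1% of all genes. Cela1, an elastase of the acinar pancreas, had 428.5 TPM in FGF21 replicate 1 and 578.3 TPM in replicate 3, against 28.2 to 31.5 TPM in MASH vehicle. The part of acinar RNA in the member values was not tested. GC content also set replicate 1 apart. Across all genes the Spearman correlation of a library's deviation from the mean of all libraries with GC content was -0.13 in FGF21 replicate 1 and 0.46 to 0.66 in the other FGF21 libraries, against -0.12 to 0.25 in MASH vehicle. It was -0.55 to -0.34 in chow, below every library on the MASH diet. With the GC trend removed, 1 member was called (Ern1 higher, adjusted p = 0.0389, range 0.00851 to 0.202), against 4.01% of all genes higher and 5.27% lower. With the GC trend and replicate 1 both removed there were 6 lower (Dnajb9, Eif2ak3, Hsp90b1, Sec61b, Ssr1 and Ssr3) and 1 higher (Ern1), against 7.82% and 6.74% of all genes.

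Of the 156 other secretory pathway genes, 6 were higher and 7 lower in FGF21 than in MASH vehicle, against 6.02% and 4.28% of all genes. Their median was -0.14, against -0.03 over all genes. Higher were the ERAD lectin Os9 (0.52, adjusted p = 0.013), the holdase Bag6 (0.65), the glucosidase subunit Prkcsh (0.52), the glucosidase Mogs (0.59), Atf6b (0.56) and the eIF2 alpha phosphatase subunit Ppp1r15a (0.44). Lower were Ost4 (-0.47), the ATPase adaptor Ubxn8 (-0.48), Ppic (-0.53), Srp19 (-0.51), the COPII GTPase Sar1a (-0.32), the oligosaccharyltransferase subunit Tmem258 and the stress transcription factor Atf3. Atf3 averaged 0.875 ± 0.171 TPM in FGF21 and 3.67 ± 1.28 TPM in MASH vehicle, a log2 fold change of -1.28 (adjusted p = 0.00106). By list, 2 of 32 ERAD genes were higher and 1 lower, 2 of 18 glycan processing genes higher and 2 lower, and 2 of 25 regulators higher and 1 lower. Folding enzymes, translocation and COPII each had 0 higher and 1 lower by limma.

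FGF21 against chow sets treated mice on the MASH diet beside untreated mice on chow, and it shares its libraries with both other comparisons. Here the members split by direction: 9 rose (27.3%, against 37.8% of all genes) and 8 fell (24.2%, against 14.2% of all genes). Of the 8 ERAD genes, 5 rose (Herpud1, Syvn1, Derl1, Derl3 and Edem2) and 2 fell (Edem1 and Derl2). The chaperones Hsp90b1 and Canx, the isomerase Pdia3, the thiol protein Erp44, and Ssr1 and Ssr3 of the translocon-associated complex also fell. Hyou1, Sec61a1, Sec24d and Ern1 made up the rest of the rises. The groups did not overlap in 8 members, all higher (30.5% of all genes were), and in 0 lower (5.99% of all genes). FGF21 replicate 1 lay within the chow range for all 8 genes that fell. Cell type markers moved in this comparison too, with 10 of 12 macrophage, 8 of 8 endothelial, 4 of 10 stellate cell and 3 of 3 tested neutrophil markers called higher. Macrophage markers summed to 379.7 to 640 TPM in FGF21 and 129.5 to 163.3 TPM in chow. Of the 10 hepatocyte markers 3 were higher and 4 lower. Their part in the member values was not tested.

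Hyou1 had the highest log2 fold change of FGF21 against chow, at 1.24 ± 0.252 (adjusted p = 0.00182), with means of 188 ± 16.7 TPM in FGF21 and 82.4 ± 25.8 TPM in chow. For MASH vehicle against chow it had 0.96. Syvn1 averaged 157 ± 39.9 TPM in FGF21 and 83.1 ± 24.9 TPM in chow, with 0.93 (adjusted p = 0.0129), against 0.41 for MASH vehicle. Herpud1 averaged 488 ± 79.1 TPM in FGF21 and 331 ± 56.1 TPM in chow, with 0.56 (adjusted p = 0.0207). Derl3 had 1.19, Sec61a1 0.67, Sec24d 0.56, Edem2 0.37, Ern1 0.37 and Derl1 0.32. Eif2ak3, called in MASH vehicle, had 0.26 (adjusted p = 0.201). Dnajb11 and Sel1l did not overlap with chow, yet their adjusted p-values were 0.0557 and 0.154.

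The falls were led by Hsp90b1, which averaged 110 ± 58.8 TPM in FGF21 and 195 ± 31.1 TPM in chow and fell by 0.94 ± 0.262 on the log2 scale (adjusted p = 0.0102). Erp44 fell by 0.92 (adjusted p = 0.00621), Ssr3 by 0.89 (0.0136), Pdia3 by 0.86 (0.00848) and Ssr1 by 0.71 (0.0394). Canx, with 47.1 ± 15.4 TPM in FGF21 and 70.4 ± 6.80 TPM in chow, fell by 0.61 (adjusted p = 0.0111). Edem1 fell by 0.41 and Derl2 by 0.33. Hspa5 had -0.22 (adjusted p = 0.567), Dnajb9 -0.56 (0.211), Dnajc3 -0.26 (0.166) and P4hb -0.28 (0.174). Sec61b, Manf and Atf6 lay between -0.14 and -0.07, and Xbp1 (0.46), Sdf2l1 (0.52), Creld2 (0.82), Calr (0.17), Pdia4 (0.29) and Pdia6 (0.28) above 0 without a call.

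Hyou1 higher and Hsp90b1, Canx, Erp44, Pdia3 and Ssr3 lower were called under all 27 alternatives. The median of all genes was 0.20, and median-of-ratios scaling, which took it to 0.01, gave 4 members higher and 10 lower. All genes then split into 2538 higher and 2714 lower, against 4153 and 1560. The count of 9 higher was 5 without chow replicate 2. The count of 8 lower was 5 without FGF21 replicate 2, without FGF21 replicate 4, without chow replicate 1 or without chow replicate 3. GC content sorted the 2 directions: the members called higher had 49.3% to 57.3% GC and those called lower 40.8% to 46.9%. The Spearman correlation over the members was 0.81, against 0.61 over all genes. With the GC trend removed, Hyou1 was the 1 member called higher (0.84, adjusted p = 0.0243, range 0.00132 to 0.0444) and 8 were lower, 6 of them as before, against 15% and 16% of all genes. Derl2 and Ssr1 were lost, and P4hb and Sec61b added. The part of GC content in the fold changes was not tested beyond that removal.

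**Figure D5:**
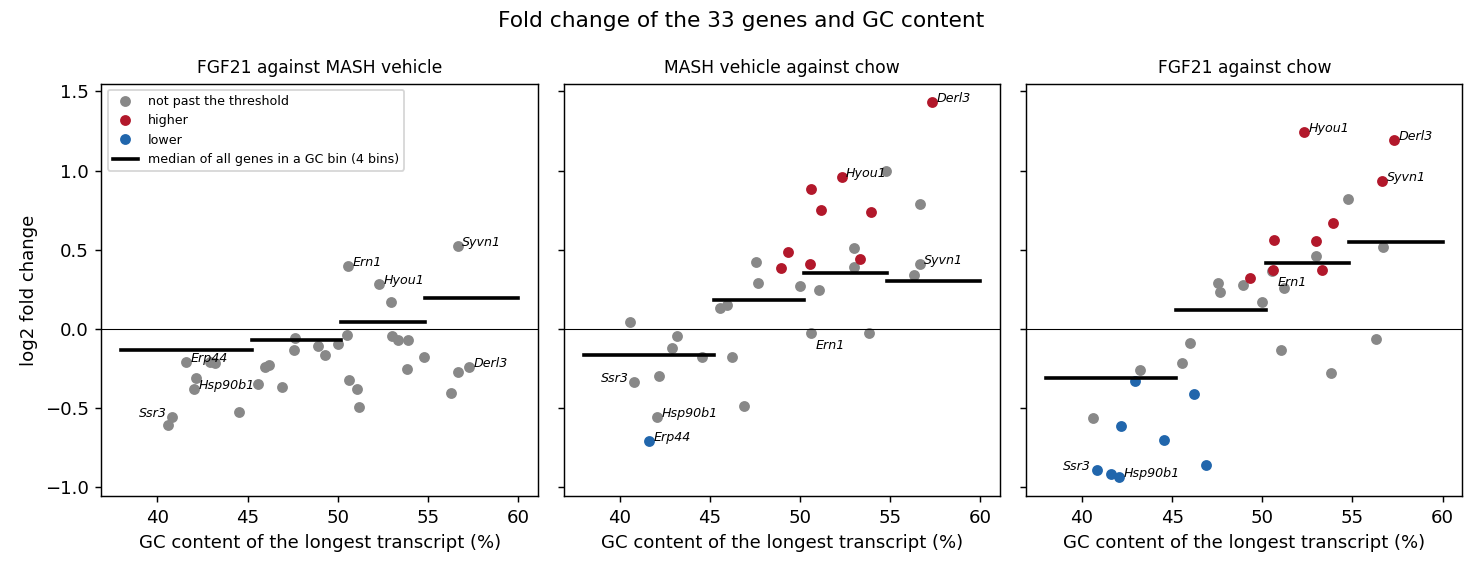
Log2 fold change (vertical axis) against GC content of the longest transcript in percent (horizontal axis) for the 33 genes in the 3 comparisons, coloured by call, with the median of all genes in each of 4 bins of GC content as black lines. In FGF21 against chow the called members divide by GC content, with blue points at 40.8% to 46.9% and red points at 49.3% to 57.3%.

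Among the other secretory pathway genes, 50 of 156 were higher and 29 lower in FGF21 than in chow, against 37.8% and 14.2% of all genes. Their median was 0.09, against 0.20 over all genes. The regulators had 13 of 25 higher and 1 lower, led by Traf2 (1.01, adjusted p = 3.33e-05), Ppp1r15a (0.76) and Creb3l1 (0.80). ERAD had 12 of 32 higher and 6 lower, led by the ubiquitin-conjugating enzyme Ube2g2 (0.81) and Man1b1 (0.84). Other folding enzymes had 9 of 32 higher and 7 lower, among them Tmx4 (-0.63), Txndc5 (0.85) and Fkbp10 (0.71). COPII had 6 of 24 higher and 5 lower, among them Preb (0.71), Sar1b (-0.95) and Surf4 (0.67). Translocation had 5 of 25 higher and 7 lower, with Srp68 (1.03), Srprb (0.65) and Sec63 (-0.72), and glycan processing 5 of 18 higher and 3 lower, with Mogs (0.57), Ddost (0.47) and Magt1 (-0.73).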

How the data were processed

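Polyadenylated RNA of whole mouse liver was measured in 12 libraries, 4 per group. A Qiagen column kit and oligo-dT enrichment were used, per the labels' protocols. Per the submitters' processing notes, Trim Galore 6.10, Salmon 1.10.2 and build mm10 were used. For the annotation and for the summary of transcripts to genes, the method is not given in the sources used here. Values of 14822 genes were deposited by the authors, named FPKM in one place and normalized counts in another. Since its columns sum to just under 1000000, the table deposited by the authors was taken to hold TPM, rounded to 1 decimal. Depth is therefore unknown, no counting intervals can be given, and precision rests on the spread between libraries.

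Genes with at least 1 TPM in at least 4 libraries were tested (10988 genes). From the deposited TPM, log2(TPM + 1) was computed, and a 3-group model was fitted to the 12 libraries with limma 3.58.1 under R 4.3.3, using the trend and robust options, two-sided, with Benjamini-Hochberg adjustment over all genes tested. Coordinates and GC content came from GENCODE M21 (GRCm38, also called mm10), and promoter sequence from RefSeq (GRCm38.p6). The script was tested on simulated data.

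The 33 members, the pathway and marker lists and the alternatives were chosen with earlier results of these data known. Values in every library are given for Hspa5, Xbp1 and every member called in MASH vehicle against chow or in FGF21 against MASH vehicle. From each pathway list up to 3 called genes, those with the smallest p-values per contrast, are named, except that a result that needs an item withheld for evaluation is not reported here. Tmem258, Ern1, Sec61b, Hsp90b1, Dnajb9 and Ssr3 in FGF21 against MASH vehicle were described after their values were seen. The 27 alternatives were pseudocounts of 0.1 and 5, no filter, a filter at 5 TPM, median-of-ratios and quantile scaling, a total without Mup and mitochondrially encoded genes, removal of the GC trend (loess per library), a replicate block, only the 2 groups compared, array weights, no trend and robust options, each library left out in turn, and both FGF21 replicates 1 and 3 left out. FGF21 replicate 1 left out together with chow replicate 2, and GC trend removal without FGF21 replicate 1, were added after seeing the data.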

Additional observations from a re-analysis of the deposited data

Results flagged for a closer look

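In 3 of 99 groups of 4 libraries (33 members in 3 groups), 1 library lay far from the other 3 by Dixon's test at its 95% critical value. Chance gives about 1 in 20 such groups. In chow, Hyou1 was at 43.9 TPM in replicate 2, with the nearest library at 92.7 TPM. Derl1 in chow was at 38.6 TPM in replicate 2, with the nearest library at 42.1 TPM. Sec61b in chow was at 185.3 TPM in replicate 1, with the nearest library at 138.1 TPM.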

How the results depend on the processing

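Counts below are of the 33 members, higher and lower. For MASH vehicle against chow (9 and 1) they were 6 and 5 with median-of-ratios scaling, 2 and 2 with the GC trend removed, 3 and 4 with that and FGF21 replicate 1 removed, 11 and 4 with only the 2 groups, 15 and 2 with array weights, 12 and 4 without FGF21 replicates 1 and 3, and 7 and 2 without FGF21 replicate 1 and chow replicate 2. Leaving out 1 library gave 6 to 12 higher and 0 to 4 lower. For FGF21 against MASH vehicle (0 and 0) they were 1 and 0 with the GC trend removed, 1 and 6 with FGF21 replicate 1 also removed, 1 and 9 with array weights or without FGF21 replicates 1 and 3, and 1 and 8 without FGF21 replicate 1 and chow replicate 2. Leaving out 1 library gave 0 to 1 higher and 0 to 8 lower. For FGF21 against chow (9 and 8) they were 4 and 10 with median-of-ratios scaling, 5 and 9 with quantile normalization, 5 and 8 without Mup and mitochondrially encoded genes, 1 and 8 with the GC trend removed, 1 and 9 with that and FGF21 replicate 1 removed, and 8 and 5 with only the 2 groups. Leaving out 1 library gave 5 to 10 higher and 5 to 10 lower. The value of Edem2 for FGF21 against chow changed sign with the GC trend removed (-0.0724, adjusted p = 0.592, and -0.0719, adjusted p = 0.617, without FGF21 replicate 1), against 0.37 (range of adjusted p over the alternatives 0.0136 to 0.617). The cause of these changes was not tested. Other pseudocounts, filters and the fit with no trend and robust options kept every count within 1.5 times.

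With the replicate block the counts were 12 and 3, 0 and 1, and 10 and 8. Over all genes, the block gave 958 higher and 635 lower for FGF21 against MASH vehicle, against 662 and 470. Over 12 pairs of libraries with the same number, deviations correlated at -0.18 to 0.41 and 7 pairs were over 0.1. Pairs with different numbers ranged from -0.50 to 0.43. These values do not settle whether libraries with the same number share a factor. The numbers were not taken to pair libraries because the labels name no pairing. The library names in the labels also carry numbers that do not all match between groups for the same replicate number.

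Counts over all genes moved too. For MASH vehicle against chow, 3242 higher became 1683 with quantile normalization, 1464 with the GC trend removed and 1666 with FGF21 replicate 1 also removed. The 861 lower became 1986, 1381 and 1601 under these, 1355 with array weights, and 494 to 1208 with 1 library left out. For FGF21 against MASH vehicle, 662 higher and 470 lower became 286 to 1273 and 242 to 941 with 1 library left out, 1415 and 1054 with array weights, 348 and 283 with only the 2 groups, 1767 and 1222 without FGF21 replicates 1 and 3, 1249 and 1120 without FGF21 replicate 1 and chow replicate 2, and 433 higher with the GC trend removed (845 lower without FGF21 replicate 1). For FGF21 against chow, 4153 higher became 2528 with quantile normalization, 1622 with the GC trend removed and 2156 with FGF21 replicate 1 also removed. The 1560 lower became 2628 with quantile normalization and 950 to 2042 with 1 library left out. With the stricter filter there were 1030 lower, but of 7576 genes tested. That is a share of 13.6%, against 14.2% of 10988.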
